A study of Mus musculus with 42 samples.

Results

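Stromal cells of mouse visceral adipose tissue (VAT) that carry the population name VmSC4 were compared after transfer into recipient mice with VmSC4 cells sequenced directly from the sorter. The comparison rested on 6 of the 42 libraries of the series, 3 labelled as transferred VmSC4 recovered as VmSC4 and 3 labelled as fresh VmSC4, and it was made across all expressed genes. The 6 libraries were chosen by their sample labels, with earlier results of these data already known. All 6 carry the genotype label Pparg-Tdt, and the 3 transferred libraries carry the treatment label adoptive transfer, with Kaeda mice as recipients according to the series text. The series text gives the question as whether VmSC4 and VmSC5, a second stromal population of the same tissue, convert into each other. Fresh libraries were made from 1000 double-sorted cells each, and the number of cells behind a transferred library is not given in the sources used here. The sorting gates, the age and sex of the mice, the time between transfer and recovery, and the number of animals behind each library are not given there either. Transfer, the recipient, the time in it, the second isolation and the lower depth of the transferred libraries were all shared by the 3 transferred libraries, and their parts in any difference below cannot be told apart. Nothing in the labels says that libraries of a group came from separate animals, and each p-value below reflects library-to-library spread only, which may be technical.

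Stromal cells of adipose tissue are fibroblast-like cells that express Pdgfra, build the collagen scaffold of the tissue and include the precursors of fat cells. Dpp4 and Pi16 mark uncommitted interstitial progenitors that lie in the connective tissue around the fat lobules, while Icam1, Fabp4 and Pparg mark preadipocytes closer to becoming fat cells. When fibroblasts are activated, classically by TGF-beta, they raise fibrillar collagens, fibronectin and periostin.

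The fresh libraries held 11186713 to 12514783 counts and the transferred libraries 1967123 to 5044946, with the smallest in transferred replicate 2. Between 23030 and 23831 genes had a count in the fresh libraries and between 19559 and 20702 in the transferred ones. Transcripts of the mitochondrial genome took 0.304% to 0.423% of counts in the fresh and 0.670% to 0.871% in the transferred libraries. Levels here are in CPM, counts scaled to a common library total. Pearson correlation across the genes tested is given as a description, on log2 CPM with TMM scaling between libraries. It was 0.971 to 0.974 within the fresh group, 0.954 to 0.966 within the transferred group and 0.861 to 0.903 between them. The stromal label was borne out by its markers, since all 12 listed stromal genes were detected and together took 15.0% to 15.2% of fresh and 10.7% to 11.1% of transferred counts. Most of the fresh sum was Gsn, gelsolin, at 98385 to 105380 CPM in fresh and 16032 to 16937 CPM in transferred libraries. The lower transferred sum goes with that gene, since 8 of the 12 stromal genes rose and 2 fell. Markers of most other cell types were low. Summed levels in CPM were 13.4 to 23.6 in fresh and 18.04 to 35.3 in transferred libraries for 12 endothelial genes, 11.6 to 26.0 and 9.71 to 16.9 for 12 macrophage genes, and 0.179 to 0.959 and 0 to 0.508 for 7 epithelial genes. For 14 lymphocyte genes the sums were 10.4 to 356 in fresh and 2.18 to 4.79 in transferred libraries, the highest in fresh replicate 2, where Ighm, the heavy chain of IgM, alone reached 354 CPM. Higher sums were found for 12 mesothelial genes, at 154.3 to 199.8 CPM in fresh and 111.5 to 127.1 CPM in transferred libraries, and for 10 pericyte and smooth muscle genes, at 290.5 to 411 and 173.5 to 191 CPM. Most of the mesothelial sum came from Nkain4 and from Wt1, which also marks visceral fat stroma. In the transferred libraries most of it came from Wt1, with Nkain4 at 5.59 to 9.58 CPM. Of the 12 mesothelial genes, 9 were below 1 CPM in all 6 libraries. Most of the pericyte and smooth muscle sum came from Des and Myh11. Of the 12 macrophage genes, 2 had no counts in any of the 6 libraries, Itgam and Cd163. Others were detected, with Lyz2 up to 16.5 CPM and Csf1r up to 7.24 CPM, both in fresh libraries. Of the 14 lymphocyte genes, 3 had no counts in any of the 6 libraries, Cd8a and Nkg7 among them. Cd3e and Ptprc each reached 1.53 CPM in transferred replicate 2. In bulk samples such as these, fewer cells of a type and less RNA per cell cannot be told apart.

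Expression differed widely between transferred and fresh VmSC4, in both directions. Of 13947 genes tested with edgeR's quasi-likelihood F test, 2990 rose (21.4%) and 3442 fell (24.7%) at a Benjamini-Hochberg adjusted p under 0.05 over all genes tested. Changes of more than 2-fold made up 1599 of the rises (11.5% of genes tested) and 1343 of the falls (9.63%). The median log2 fold change over all genes tested was -0.02. All 3 transferred libraries lay above all 3 fresh libraries for 3416 genes (24.5%) and below them for 4224 (30.3%). These shares are the background against which each list of genes is read.

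The most abundant transcript changed from gelsolin to a collagen. Gsn, the actin-severing protein gelsolin, was the most abundant transcript of every fresh library and stood at 105380, 98385 and 100640 CPM in the fresh libraries and 16032, 16898 and 16937 CPM in the transferred libraries. Col3a1 took its place as the most abundant transcript in each transferred library, with 10218, 5809 and 12829 CPM in the fresh libraries and 71628, 69955 and 71678 CPM in the transferred libraries. The transferred libraries were tightly grouped for both genes and far from the fresh ones. Gsn fell (log2 fold change -2.59 ± 0.11, SE; edgeR adjusted p = 2.81e-15) and Col3a1, a chain of collagen III, rose (2.90 ± 0.20, SE; edgeR adjusted p = 2.92e-09). Gsn lies at chr2:35256380-35307892 and Col3a1 at chr1:45311538-45349706 of GRCm38. Col1a1, which encodes the main chain of collagen I at chr11:94936224-94953042, stood at 3442, 1556 and 3943 CPM in the fresh libraries and 33850, 37535 and 37096 CPM in the transferred libraries. Fresh replicate 2 was the lowest of the 6 for Col1a1, and the nearest libraries of the groups were still apart by more than the whole range of the fresh group. The fitted rise of Col1a1 was 12.3-fold (log2 fold change 3.62 ± 0.27 (SE), edgeR adjusted p = 3.56e-07). Together, Col1a1, Col1a2 and Col3a1 took 1.17% to 2.24% of counts in the fresh and 12.6% to 13.0% in the transferred libraries. Col1a1 and Col3a1, like Postn, Ptgs2, Cxcl1, Arntl, Hmgcs1, Srebf2, Oas1a and Ifih1 below, fall outside the rule for named genes and were chosen after their values were seen.

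Of 22 collagen genes tested among 23 listed, 16 rose, 3 fell and 3 were not called, with a median log2 fold change of 1.35. Leaving out fresh replicate 2 lowered the rises to 12. Col1a2, the partner chain of collagen I, went from 5061, 4325 and 5623 to 20040, 19131 and 20715 CPM (log2 fold change 2.02 ± 0.12 (SE), edgeR adjusted p = 1.9e-12). Col14a1, a fibril-associated collagen, went from 85.4, 136 and 164 to 1272, 1422 and 1192 CPM (log2 fold change 3.35 ± 0.18 (SE), edgeR adjusted p = 5.71e-12). For another fibril-associated collagen, Col12a1, the level was 2.24, 4.02 and 3.6 CPM in fresh and 83.5, 85.4 and 76.7 CPM in transferred libraries, a fitted rise of 25.3-fold (log2 fold change 4.66 ± 0.25 (SE), edgeR adjusted p = 4.2e-13). In each of these genes the libraries of the groups were well separated. The collagen V chain Col5a2 rose as well, from 1061, 786 and 1218 to 2994, 2903 and 2909 CPM (log2 fold change 1.54 ± 0.13 (SE), edgeR adjusted p = 4.69e-10). The 3 that fell, named after their values were seen, were Col4a1 (-0.89) and Col4a2 (-1.27), which build basement membranes, and the transmembrane collagen Col13a1 (-2.62); values are log2 fold changes. The call for Col13a1 was lost without fresh replicate 1 or without transferred replicate 3, both at an edgeR adjusted p of 0.0894. Col5a3 (539, 514 and 699 CPM fresh, 462, 539.9 and 508 CPM transferred) and Col18a1 (234, 154 and 233 CPM fresh, 229, 275 and 279 CPM transferred) overlapped between groups and were not called; Col18a1 was called higher in 7 of 12 alternatives, at adjusted p down to 0.0173.

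**Figure D1:**
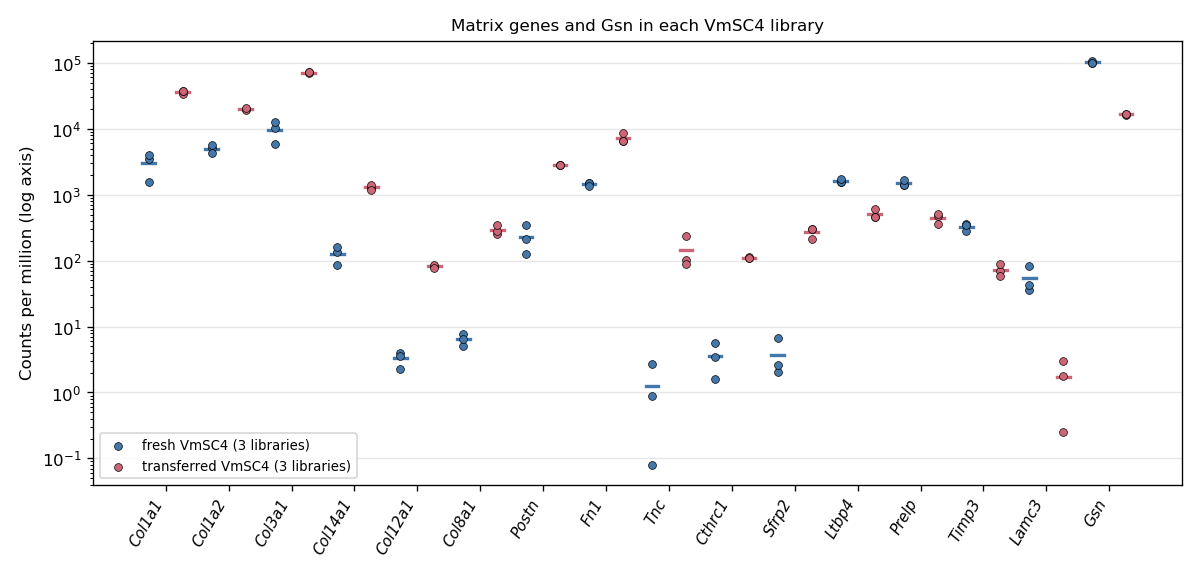
Levels of 16 genes, Gsn among them, in CPM on a log axis, in the 3 fresh (blue) and 3 transferred (red) VmSC4 libraries; each point is a library and each bar the mean of a group. Collagen and provisional matrix genes lie higher in all transferred libraries, Ltbp4, Prelp, Timp3, Lamc3 and Gsn lower, and the groups do not overlap for any gene shown.

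Among 46 matrix glycoproteins and proteoglycans, all tested, 30 rose and 9 fell (median log2 fold change 0.86). Fn1, fibronectin, stood at 1524, 1502 and 1379 CPM in the fresh libraries and 6451, 8770 and 6634 CPM in the transferred libraries, with transferred replicate 2 the highest, and rose 5.02-fold (log2 fold change 2.33 ± 0.12 (SE), edgeR adjusted p = 4.84e-14). Postn, the matricellular protein periostin, stood at 128, 217 and 342 CPM in fresh libraries and at nearly the same level in each transferred one, 2864, 2833 and 2837 CPM (log2 fold change 3.65 ± 0.31 (SE), edgeR adjusted p = 2.44e-06). Sparc, a collagen-binding glycoprotein, rose from 3700, 3800 and 4517 to 12078, 10575 and 12275 CPM (log2 fold change 1.56 ± 0.13 (SE), edgeR adjusted p = 6.44e-10). The small proteoglycan biglycan, Bgn, rose from 1994, 2196 and 3210 to 9004, 8336 and 9183 CPM (log2 fold change 1.86 ± 0.16 (SE), edgeR adjusted p = 1.03e-08). The microfibril protein fibrillin, Fbn1, rose from 481, 757 and 523 to 3229, 3504 and 3235 CPM (log2 fold change 2.52 ± 0.21 (SE), edgeR adjusted p = 1.27e-07). Falls in this group took in Ltbp4, a latent TGF-beta binding protein of elastic fibres, at 1549, 1566 and 1758 CPM in fresh and 458, 601 and 463 CPM in transferred libraries (log2 fold change -1.66 ± 0.12 (SE), edgeR adjusted p = 7.21e-11). Prelp, a leucine-rich proteoglycan, was at 1414, 1396 and 1649 CPM in fresh and 469, 363 and 513 CPM in transferred libraries (log2 fold change -1.70 ± 0.13 (SE), edgeR adjusted p = 7.68e-11). Lamb1, a laminin chain (736, 1014 and 762 CPM fresh, 712, 758 and 713 CPM transferred), and Ogn, osteoglycin (513, 962 and 639 CPM fresh, 770.2, 588 and 679 CPM transferred), overlapped between groups.

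Several matrix genes were among the 12 largest rises, taken among called genes that reached a mean of 20 CPM in a group and did not overlap. Tnc, tenascin C, a protein of remodelling tissue, was at 0.0799, 0.894 and 2.74 CPM in the fresh libraries and 104, 236 and 89.4 CPM in the transferred libraries. The fresh libraries were spread from almost none to a few CPM, and every transferred library lay far above the highest of them (log2 fold change 6.83 ± 0.90 (SE), edgeR adjusted p = 0.000202). Sfrp2, a secreted WNT modulator of fibroblasts at chr3:83766321-83774316, was at 6.63, 2.06 and 2.57 CPM in the fresh libraries and 211, 305 and 302 CPM in the transferred libraries (log2 fold change 6.17 ± 0.75 (SE), edgeR adjusted p = 0.00011). Adamts16, a secreted metalloprotease, was at 0.24, 0.358 and 0 CPM in fresh and 15.1, 29 and 26 CPM in transferred libraries (log2 fold change 6.76 ± 0.57 (SE), edgeR adjusted p = 1.11e-07). No fresh library of these 3 genes reached the level of a transferred one. Piezo2, a channel opened by mechanical force, was at 0.719, 0.268 and 0.342 CPM in fresh and 33.5, 45.8 and 45.8 CPM in transferred libraries (log2 fold change 6.49 ± 0.62 (SE), edgeR adjusted p = 1.34e-06). The log2 fold changes of the other 8 were 6.17 for Ddah1, which breaks down methylated arginines, 5.84 for Dkk3 of the dickkopf family, 5.69 for the microfibril-associated Ltbp2 and 5.56 for the short-chain collagen Col8a1. They were 5.34 for the adhesion molecule Ncam1, 5.26 for the fibrillin Fbn2, 4.99 for Cthrc1, a secreted marker of activated fibroblasts, and 4.90 for Zfp469, with edgeR adjusted p from 1.56e-14 for Ncam1 to 0.000231 for Ltbp2.

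Myofibroblast and TGF-beta genes rose in 18 of 26 tested and fell in 2, and their median log2 fold change of 1.70 was the highest of the gene lists with more than 1 gene tested. Tgfb3, a TGF-beta ligand, was at 107, 80.5 and 116 CPM in the fresh libraries and 609, 571 and 572 CPM in the transferred libraries (log2 fold change 2.55 ± 0.16 (SE), edgeR adjusted p = 5.71e-12). Its receptor gene Tgfbr1 was at 5.59, 8.58 and 12.2 CPM in fresh and 42.4, 54.4 and 47.6 CPM in transferred libraries (log2 fold change 2.46 ± 0.23 (SE), edgeR adjusted p = 3.74e-09). In both genes the lowest transferred library lay well above the highest fresh one. The second receptor chain, Tgfbr2, was not called, at 430.1, 409 and 547 CPM in fresh and 381, 371 and 379 CPM in transferred libraries (log2 fold change -0.27 ± 0.12 (SE), edgeR adjusted p = 0.0591). It lay lower in every transferred library. It was called lower without fresh replicate 1 (edgeR adjusted p = 0.0431), without fresh replicate 2 (0.0281) and without a filter on low counts (0.0338). Pmepa1 and Skil, feedback inhibitors that TGF-beta induces, went from 11.9, 9.65 and 7.79 to 59.5, 67.6 and 62 CPM and from 9.67, 15.7 and 14.6 to 52.7, 68.1 and 71 CPM, fitted rises of 6.51-fold and 4.87-fold (edgeR adjusted p = 1.87e-10 and 2.23e-09). Ltbp1, which tethers latent TGF-beta, overlapped between groups (368, 465 and 450.5 CPM fresh, 349.8, 409.7 and 379 CPM transferred).

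Enzymes that build, cross-link or cut the matrix rose in 17 of 35 tested and fell in 3. Has1, a hyaluronan synthase, was at 5.67, 4.2 and 3.85 CPM in the fresh libraries and 83.7, 77.8 and 78.5 CPM in the transferred libraries. This was a rise of 17.7-fold with little spread in either group (log2 fold change 4.14 ± 0.16 (SE), edgeR adjusted p = 2.5e-16). Mmp11, a matrix metalloprotease, rose from 71, 78.7 and 87.3 to 254, 257 and 249 CPM (log2 fold change 1.70 ± 0.13 (SE), edgeR adjusted p = 7.21e-11). Timp3, an inhibitor of such proteases, was at 363, 277 and 343 CPM in fresh and 70.9, 88.5 and 58.5 CPM in transferred libraries (log2 fold change -2.18 ± 0.15 (SE), edgeR adjusted p = 3.27e-11). The aggrecan-cutting Adamts5 was at 910.0, 1078 and 961 CPM in fresh and 381, 428 and 409.5 CPM in transferred libraries (log2 fold change -1.25 ± 0.12 (SE), edgeR adjusted p = 3.77e-09); both fell. Mmp2, gelatinase A, lay higher in every transferred library (2281, 2628 and 2231 CPM fresh, 3444, 3551 and 3758 CPM transferred) but was not called (edgeR adjusted p = 0.0752); it was called by DESeq2 (adjusted p = 0.035) and by edgeR with only the 6 libraries fitted (0.00049).

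Genes of Dpp4+ progenitors mostly rose and genes of committed preadipocytes mostly fell. Of 25 Dpp4+ progenitor genes, 16 rose and 2 fell (median log2 fold change 0.64), and of 23 committed preadipocyte genes tested, 15 fell and 5 rose (median -0.89). Fn1, whose rise is given with the matrix genes, is also among the progenitor genes. Dpp4, the surface peptidase that names the progenitors and lies at chr2:62330073-62412231, was at 1.76, 1.7 and 2.83 CPM in the fresh libraries and 34.3, 29 and 26.4 CPM in the transferred libraries. Every transferred library lay well above the highest fresh one (log2 fold change 3.85 ± 0.22 (SE), edgeR adjusted p = 5.2e-13). Pi16, a secreted peptidase inhibitor of the same cells, was at 55.9, 35.8 and 36.6 CPM in the fresh libraries and 282, 288 and 260.5 CPM in the transferred libraries (log2 fold change 2.71 ± 0.23 (SE), edgeR adjusted p = 1.99e-07). Ly6c1, a surface protein, rose from 200.4, 157 and 156 to 433, 362 and 402 CPM (log2 fold change 1.25 ± 0.12 (SE), edgeR adjusted p = 5.71e-09). The microfibril protein Mfap5 rose from 556, 705 and 659 to 1506, 1358 and 1559 CPM (log2 fold change 1.23 ± 0.12 (SE), edgeR adjusted p = 7.49e-09). Not all genes of the list moved: Igfbp6, an IGF-binding protein, was at 705, 769 and 731 CPM in fresh and 689, 655 and 804 CPM in transferred libraries, and the semaphorin Sema3c at 43.5, 35.6 and 27.7 CPM in fresh and 48.4, 43.7 and 35.1 CPM in transferred libraries. Their log2 fold changes were -0.01 and 0.27 (edgeR adjusted p = 0.954 and 0.196).

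Thy1, a surface glycoprotein that separated fresh VmSC4 from fresh VmSC5, was near the detection limit in VmSC4. Its level was 1.04, 0.715 and 0.685 CPM in the fresh libraries and 1.01, 1.53 and 0.991 CPM in the transferred libraries, against 48.1, 49.1 and 57.1 CPM in fresh and 49.3 and 38.5 CPM in transferred VmSC5. The VmSC4 groups overlapped (log2 fold change 0.45 ± 0.46, SE; edgeR adjusted p = 0.485). The recovered cells were sorted again as VmSC4, and the part of that gate in the levels of Thy1 and of the other population genes was not tested. Dpp4 in transferred VmSC4 lay above its level in fresh VmSC5 (16.7, 16.3 and 18.4 CPM) and below that in transferred VmSC5 (134 and 99.3 CPM). Pdgfra, the stromal growth factor receptor, rose from 541, 595 and 598 to 921, 1080 and 1003 CPM (log2 fold change 0.81 ± 0.11 (SE), edgeR adjusted p = 1.16e-06). Cd34 was at 1332, 1242 and 1203 CPM in fresh and 1094, 933 and 1065 CPM in transferred libraries and was not called (log2 fold change -0.26, edgeR adjusted p = 0.0814), although without a filter on low counts its adjusted p was 0.0232. Ly6a, the gene of the progenitor antigen Sca-1, rose from 974, 1038 and 834 to 1273, 1143 and 1212 CPM (log2 fold change 0.38 ± 0.11 (SE), edgeR adjusted p = 0.00795); at an adjusted p of 0.0506 it was not called without fresh replicate 3. Ackr3, a scavenging chemokine receptor, was at 83.2, 47 and 59.8 CPM in fresh and 95.3, 86.4 and 77.7 CPM in transferred libraries (log2 fold change 0.47, edgeR adjusted p = 0.0145), with overlapping libraries. Its adjusted p was 0.0561 without fresh replicate 2 and 0.0848 without transferred replicate 1.

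**Figure D2:**
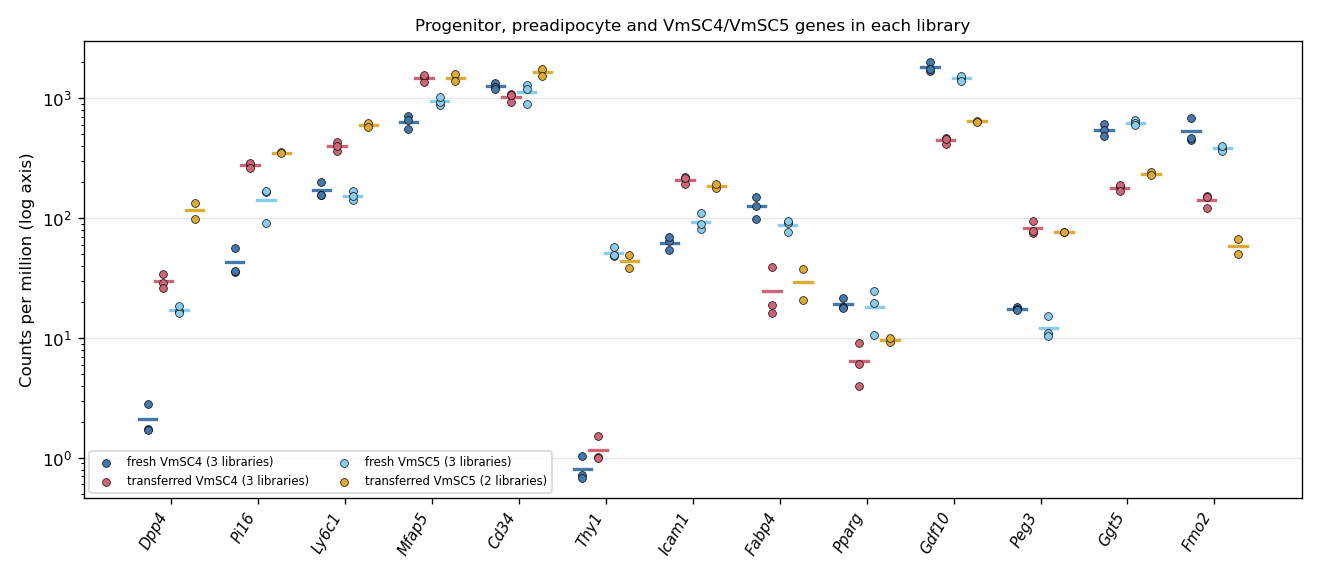
Levels of 13 progenitor, preadipocyte and population genes, in CPM on a log axis, in each fresh and transferred library of VmSC4 and VmSC5; points are libraries and bars group means. Dpp4 and Pi16 lie higher and Fabp4, Pparg, Gdf10, Ggt5 and Fmo2 lower in all transferred VmSC4 libraries, while Thy1 stays between 0.685 and 1.53 CPM in all 6 VmSC4 libraries.

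More fat cell genes fell than rose in the transferred cells. Pparg, the master regulator of fat cell formation at chr6:115360951-115490399, was at 18.1, 17.8 and 21.4 CPM in the fresh libraries and 9.08, 6.1 and 3.96 CPM in the transferred libraries. Fabp4, a fatty acid carrier and one of its targets, was at 99.2, 151 and 126 CPM in the fresh libraries and 38.8, 18.8 and 16.3 CPM in the transferred libraries. Transferred replicate 1 was the highest of its group for both genes and still lay below every fresh library. Pparg fell 2.97-fold (log2 fold change -1.57 ± 0.31 (SE), edgeR adjusted p = 0.000239) and Fabp4 4.93-fold (log2 fold change -2.30 ± 0.30 (SE), edgeR adjusted p = 2.86e-05). Of 24 adipocyte genes tested among 30 listed, 9 fell, 3 rose and 12 were not called (median log2 fold change -0.63); without fresh replicate 1, 5 rose. Klf15, an adipogenic transcription factor (55.1, 46.4 and 41.5 CPM fresh, 6.31, 7.12 and 11.9 CPM transferred), fell (log2 fold change -2.41 ± 0.24 (SE), edgeR adjusted p = 1.11e-08). The fatty acid elongase Elovl6 (38.9, 54.5 and 44.7 CPM fresh, 11.6, 12.7 and 6.54 CPM transferred) and the hormone-sensitive lipase gene Lipe (53.1, 53.4 and 40.1 CPM fresh, 16.1, 16.3 and 16.8 CPM transferred) fell with log2 fold changes of -2.20 and -1.54 (edgeR adjusted p = 4.14e-08 and 1.79e-06). Srebf1, which drives fatty acid synthesis, fell from 202, 170.1 and 181 to 91, 98.6 and 98.9 CPM (log2 fold change -0.92 ± 0.13 (SE), edgeR adjusted p = 2.23e-06). The synthesis enzymes Acly (407, 199.97 and 353 CPM fresh, 409.6, 412 and 387 CPM transferred) and Scd1 (135, 73 and 65.5 CPM fresh, 119.5, 112 and 117 CPM transferred) were not called. Fat cell hormones were at or near zero in both groups, Adipoq at no more than 2.31 CPM and Lep at no more than 0.428 CPM in any library.

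Committed preadipocyte genes did not all fall. Icam1, the adhesion molecule used to mark these cells, was at 54.1, 64 and 69.9 CPM in the fresh libraries and 192, 221 and 216 CPM in the transferred libraries and rose (log2 fold change 1.76 ± 0.13 (SE), edgeR adjusted p = 1.18e-10). Peg3, an imprinted zinc finger gene, rose from 18, 17.5 and 17.2 to 75.7, 95.6 and 78.5 CPM (log2 fold change 2.26 ± 0.16 (SE), edgeR adjusted p = 3.59e-11). Ggt5, which cleaves glutathione conjugates, fell from 607, 542 and 481 to 181, 191 and 169 CPM (log2 fold change -1.57 ± 0.11 (SE), edgeR adjusted p = 5.02e-11). The monooxygenase Fmo2 fell from 448, 467 and 679 to 153, 151 and 122 CPM (log2 fold change -1.89 ± 0.15 (SE), edgeR adjusted p = 4.37e-10). Vcam1 (267, 271 and 304 CPM fresh, 300.1, 247 and 294 CPM transferred) and the adipogenic factor Ebf1 (209, 239.8 and 242 CPM fresh, 246, 314 and 258 CPM transferred) were not called. Ebf1 lay higher in all transferred libraries (edgeR adjusted p = 0.0684) and stayed uncalled in 8 of 12 alternatives. In the other alternatives Ebf1 was called higher, at edgeR adjusted p down to 0.02. All 12 tested genes of the list for F3+ regulatory stromal cells, which restrain adipogenesis, were called, 9 of them higher and 3 lower (median log2 fold change 0.83). Bgn, whose rise is given with the matrix genes, belongs to this list. The 3 that fell were Gdf10, Vit and Aldh1a2. Gdf10, a BMP family ligand, was at 2009, 1702 and 1766 CPM in fresh and 415, 469 and 459.9 CPM in transferred libraries (log2 fold change -2.01 ± 0.11 (SE), edgeR adjusted p = 1.9e-13). Vit, vitrin, fell from 462, 322 and 346 to 76.4, 86.4 and 98.7 CPM (log2 fold change -2.08 ± 0.14 (SE), edgeR adjusted p = 8.57e-12). The retinoic acid-making Aldh1a2 fell from 69.6, 75.5 and 99.7 to 16.9, 20.3 and 15.9 CPM (log2 fold change -2.21 ± 0.23 (SE), edgeR adjusted p = 4.63e-08).

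The largest falls, taken by the same rule, were of mixed function. Alkal2, a ligand of the receptor ALK, was at 226, 264 and 185 CPM in the fresh libraries and 3.28, 4.07 and 3.96 CPM in the transferred libraries. Mmd2 was at 149, 111 and 94.2 CPM in the fresh libraries and 0.757, 0.508 and 0.793 CPM in the transferred libraries. Cnmd, chondromodulin, a matrix protein that restrains vessels, was at 90.6, 88 and 79.5 CPM in the fresh libraries and 1.01, 1.02 and 1.39 CPM in the transferred libraries. In all 3 the transferred libraries lay far below the fresh ones, between 0.508 CPM for Mmd2 and 4.07 CPM for Alkal2, and the log2 fold changes were -5.87, -7.27 and -6.13 (edgeR adjusted p = 4.2e-13, 3.21e-05 and 5.68e-05). Pttg1, securin, which guards chromosome separation, fell from 54.6, 78.2 and 61.6 to 1.77, 1.02 and 0.595 CPM (log2 fold change -5.82 ± 0.31 (SE), edgeR adjusted p = 1.27e-13). Pla2g7, which degrades platelet-activating factor, fell from 51.5, 58.3 and 34.7 to 0.757, 0.508 and 0.991 CPM (log2 fold change -5.82 ± 0.41 (SE), edgeR adjusted p = 2.45e-11). Cyp2f2, a cytochrome P450, fell from 60, 29.2 and 35.8 to 1.01, 1.53 and 0.396 CPM (log2 fold change -5.58 ± 0.55 (SE), edgeR adjusted p = 9.22e-08). Pgf, placental growth factor, fell from 36.5, 27.4 and 14 to 0.757, 0.508 and 0.793 CPM (log2 fold change -5.09 ± 0.47 (SE), edgeR adjusted p = 4e-09). Log2 fold changes were -5.14 for the laminin chain Lamc3 and -4.83 for the LIM-only factor Lmo1 (edgeR adjusted p = 2.25e-05 and 8.03e-11). Acsbg1, an acyl-CoA synthetase, was at 70.1, 25.4 and 13.7 CPM in fresh libraries and had 3 counts over all transferred libraries, a ratio of 137 (95% exact counting interval 46.6 to 663). The ratio was 71 without fresh replicate 1 and 87.3 without transferred replicate 1, and all 3 transferred counts were in replicate 3, without which the fall was at least 72-fold. Ighm, at 12.1, 354 and 7.79 CPM in the fresh libraries, had no count in any transferred library, which set against a floor of 3 counts over that group puts it at least 456-fold lower. Most of the fresh counts came from replicate 2, without which the bound was 36.3-fold; it was 291-fold without transferred replicate 1 and 246-fold without transferred replicate 3. The call (edgeR adjusted p = 0.0286) was lost in 6 of 11 alternatives, among them each transferred library left out.

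Most transcripts of cholesterol synthesis fell. These genes share the transcription factor SREBP-2, which is released when sterols are scarce and acts together with factors that bind CCAAT boxes. Of 24 tested genes of sterol synthesis, uptake and export, 18 fell, 3 rose and 3 were not called (median log2 fold change -1.23). Fdps, farnesyl diphosphate synthase, was at 17.3, 23.5 and 24.5 CPM in the fresh libraries and 4.79, 2.54 and 2.18 CPM in the transferred libraries (log2 fold change -2.73 ± 0.30 (SE), edgeR adjusted p = 5.87e-08). Fdft1, squalene synthase, was at 54.8, 61.5 and 57.5 CPM in fresh and 14.1, 15.3 and 20 CPM in transferred libraries (log2 fold change -1.76 ± 0.20 (SE), edgeR adjusted p = 1.4e-07). The late-step desaturase Sc5d was at 92.6, 110.0 and 121 CPM in fresh and 27.5, 26.4 and 27 CPM in transferred libraries (log2 fold change -1.97 ± 0.19 (SE), edgeR adjusted p = 1.31e-08). For each of these enzymes every transferred library lay below every fresh one. Srebf2, the gene of SREBP-2 itself, fell from 136, 129 and 158 to 58.8, 68.1 and 67.4 CPM (log2 fold change -1.10 ± 0.13 (SE), edgeR adjusted p = 2.47e-07). Hmgcs1, which feeds the pathway, fell less, from 109, 80.3 and 132 to 74.4, 65.6 and 63.4 CPM (log2 fold change -0.64 ± 0.18 (SE), edgeR adjusted p = 0.00729), and without fresh replicate 3 its adjusted p was 0.0507. The sterol sensor Insig1 (72.6, 60.9 and 98.5 CPM fresh, 54.2, 78.8 and 51.1 CPM transferred) was not called. Abca1, which exports cholesterol, moved the other way, from 85.5, 106 and 71.5 to 219, 293 and 256 CPM (log2 fold change 1.57 ± 0.14 (SE), edgeR adjusted p = 1.18e-09). The other 2 that rose, named after their values were seen, were the exporter Abcg1 (2.95) and the reductase Dhcr7 (0.51); values are log2 fold changes. The call for Dhcr7 was lost in 5 of 12 alternatives, at edgeR adjusted p up to 0.152.

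Promoters of the sterol genes are shown because the members moved together. The windows are RefSeq sequences of build GRCm38.p6, from 250 bases before to 50 after the start of the gene, 5′ to 3′ on the strand of the gene. Capitals mark CCAAT on either strand and, in Hmgcs1, also the sterol response element TCACNCCAC. Hmgcs1 lies at chr13:119690101-119690400, plus strand, and Sc5d, the synthesis gene with the smallest adjusted p, at chr9:42264251-42264550, minus strand.
Hmgcs1: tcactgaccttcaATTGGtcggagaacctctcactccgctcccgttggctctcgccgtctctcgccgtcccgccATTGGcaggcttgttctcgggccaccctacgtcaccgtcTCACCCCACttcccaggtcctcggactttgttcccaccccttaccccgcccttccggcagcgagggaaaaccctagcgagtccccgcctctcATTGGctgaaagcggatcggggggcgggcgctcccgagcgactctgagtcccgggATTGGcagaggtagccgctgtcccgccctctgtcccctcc
Sc5d: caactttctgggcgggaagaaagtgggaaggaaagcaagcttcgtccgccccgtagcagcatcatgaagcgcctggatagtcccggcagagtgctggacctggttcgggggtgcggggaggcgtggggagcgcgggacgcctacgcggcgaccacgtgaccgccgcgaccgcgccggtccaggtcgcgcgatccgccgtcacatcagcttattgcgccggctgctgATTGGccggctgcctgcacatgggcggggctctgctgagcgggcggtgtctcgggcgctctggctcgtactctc
CCAAT was present in 13 of the 15 tested members of the list that have such a window (86.7%), against 37.9% of the windows of all 27025 genes. The element TCACNCCAC was present in 1 of the 15, Hmgcs1, and in 1.22% of all windows. A match is a description of these letters and not of a bound site, and the first window listed for each gene was used.

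Nuclear genes of the respiratory chain fell and mitochondrially encoded transcripts rose. Of 36 nuclear-encoded subunits, 32 fell, none rose and 4 were not called (median log2 fold change -0.67). Ndufb8, of complex I, was at 139, 158 and 119 CPM in the fresh libraries and 54.5, 53.4 and 56.9 CPM in the transferred libraries (log2 fold change -1.30 ± 0.13 (SE), edgeR adjusted p = 1.67e-08). Sdhb, of complex II, was at 177, 188 and 169 CPM in fresh and 98.4, 81.3 and 84.2 CPM in transferred libraries (log2 fold change -0.98 ± 0.12 (SE), edgeR adjusted p = 2.77e-07). Cyc1 of complex III fell from 166, 139 and 138 to 73.6, 78.8 and 71.2 CPM and Cox6a1 of complex IV from 146, 167 and 139 to 70.4, 55.9 and 76.5 CPM, with log2 fold changes of -0.97 and -1.11 (edgeR adjusted p = 6.54e-07 and 1.67e-06). For each of these 4 genes all transferred libraries lay below all fresh ones. Cox7b (60.2, 83.3 and 68.9 CPM fresh, 64.8, 42.2 and 74.1 CPM transferred) and Sdhd (64.4, 69.4 and 66.2 CPM fresh, 62, 57.4 and 56.1 CPM transferred) were not called. Among 9 transcripts of the mitochondrial genome tested, 8 rose and none fell (median log2 fold change 1.17). mt-Cytb, cytochrome b, was at 559, 701 and 689 CPM in the fresh libraries and 1536, 1139 and 1347 CPM in the transferred libraries (log2 fold change 1.07 ± 0.18 (SE), edgeR adjusted p = 9.42e-05). mt-Nd4 went from 154, 195 and 186 to 340.5, 299 and 312 CPM and mt-Nd6 from 7.75, 9.83 and 11.3 to 33.8, 30.5 and 34.3 CPM, with log2 fold changes of 0.85 and 1.80 (edgeR adjusted p = 1.83e-05 and 6.17e-07). mt-Co2 was near the detection limit in both groups (0.879, 2.06 and 2.65 CPM fresh, 1.26, 0 and 0.991 CPM transferred), and counts of mitochondrial genes can be shared with their nuclear copies. The part of RNA quality or of the isolation in the mitochondrial rise was not tested.

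Glycolytic and hypoxia genes fell in 13 of 27 tested and rose in 5. Aldoa, aldolase A, fell from 1180, 1102 and 967 to 469.6, 473 and 504 CPM (log2 fold change -1.14 ± 0.11 (SE), edgeR adjusted p = 4.94e-09). Enolase, Eno1, fell from 201, 194 and 153 to 77.7, 71.2 and 66.8 CPM and the phosphofructokinase Pfkp from 237, 267 and 241 to 143, 131 and 131 CPM, with log2 fold changes of -1.32 and -0.85 (edgeR adjusted p = 4.24e-08 and 8.63e-07). Hk2, an inducible hexokinase, rose from 9.11, 7.6 and 11.2 to 27.2, 31 and 25 CPM (log2 fold change 1.58 ± 0.23 (SE), edgeR adjusted p = 5.21e-06). Lactate dehydrogenase, Ldha (363, 446 and 369 CPM fresh, 353, 309 and 322 CPM transferred), was not called. Leaving out transferred replicate 3 reduced the rises to 3.

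Detoxification genes fell in 21 of 31 tested and rose in 2 (median log2 fold change -0.68). Gstm1, a glutathione transferase, was at 2809, 2956 and 2092 CPM in the fresh libraries and 323, 284 and 314 CPM in the transferred libraries. Every transferred library lay far below the lowest fresh one (log2 fold change -3.06 ± 0.13 (SE), edgeR adjusted p = 2.81e-15). Gsta3 fell from 84.3, 109 and 100.4 to 7.31, 10.2 and 7.14 CPM (log2 fold change -3.60 ± 0.19 (SE), edgeR adjusted p = 1.57e-13). Gstm2 fell from 613, 513 and 414 to 159.9, 153 and 154 CPM (log2 fold change -1.70 ± 0.13 (SE), edgeR adjusted p = 9.25e-11). Adh1, alcohol dehydrogenase, was at 606, 869 and 757 CPM in fresh and 153, 153 and 143 CPM in transferred libraries (log2 fold change -2.29 ± 0.13 (SE), edgeR adjusted p = 7.65e-13). Catalase, Cat (156, 163 and 159 CPM fresh, 138, 134 and 125 CPM transferred), and the metallothionein Mt1 (253, 250.4 and 236 CPM fresh, 279, 245 and 316 CPM transferred) were not called. Glutathione transferases have close relatives in the genome, and how shared reads were counted is not given in the sources used here.

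**Figure D3:**
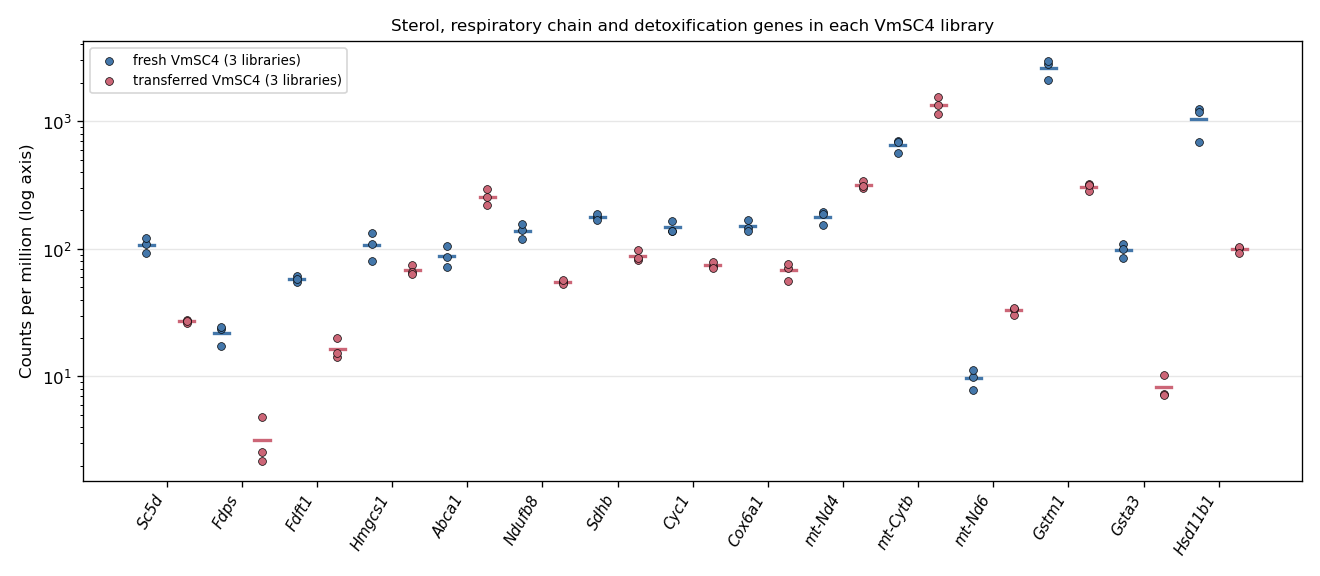
Levels of sterol, respiratory chain, mitochondrial and detoxification genes, in CPM on a log axis, in the 3 fresh (blue) and 3 transferred (red) VmSC4 libraries; points are libraries and bars group means. The sterol enzymes shown, nuclear respiratory genes and glutathione transferases lie lower in all transferred libraries, and Abca1 and the mitochondrial transcripts higher.

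Chaperone genes fell in 16 of 29 tested and rose in 4, while most ribosomal protein genes were not called. Hspa5, the chaperone BiP of the endoplasmic reticulum, fell from 1433, 1284 and 1659 to 977, 738 and 860.3 CPM (log2 fold change -0.74 ± 0.12 (SE), edgeR adjusted p = 2.57e-05). Its cofactor Sdf2l1 fell from 60.1, 58 and 75.8 to 16.1, 14.2 and 19.2 CPM (log2 fold change -1.91 ± 0.25 (SE), edgeR adjusted p = 2.2e-06). The small heat shock protein Hspb8 fell from 286, 265 and 316 to 133, 131 and 129 CPM (log2 fold change -1.12 ± 0.12 (SE), edgeR adjusted p = 4.63e-08). Hspa1a, the inducible Hsp70, which has a near-identical neighbour in the genome, rose from 17.6, 18.1 and 27.5 to 55.5, 66.1 and 49.6 CPM (log2 fold change 1.44 ± 0.19 (SE), edgeR adjusted p = 9.43e-07). Pdia3 (917, 947 and 949.8 CPM fresh, 973, 778 and 940.4 CPM transferred) and Hsp90ab1 (882, 859.6 and 918 CPM fresh, 805, 782 and 847 CPM transferred) were not called. Of 32 ribosomal protein genes, 25 were not called, 5 rose and 2 fell (median log2 fold change -0.09). The rises numbered 3 without fresh replicate 3 or without transferred replicate 1, and without transferred replicate 3 there were 3 rises and 5 falls. Rps2 fell from 318, 281 and 340.0 to 48.4, 63 and 70.6 CPM (log2 fold change -2.34 ± 0.21 (SE), edgeR adjusted p = 8.19e-08). Rplp0 (913, 901 and 850.3 CPM fresh, 969, 841 and 995 CPM transferred) overlapped between groups. Ribosomal protein genes have many processed copies, so their levels are uncertain.

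Among cytokine and inflammatory transcripts, more rose than fell. Of 23 NF-kB target genes tested among 31 listed, 13 rose and 1 fell (median log2 fold change 0.86); without transferred replicate 1 none fell. Il6, the cytokine interleukin-6, was at 2.24, 1.34 and 3.34 CPM in the fresh libraries and 28.8, 31 and 39 CPM in the transferred libraries (log2 fold change 3.86 ± 0.28 (SE), edgeR adjusted p = 3.79e-11). Il33, an alarmin made by stromal cells, was at 25.9, 19.2 and 37.4 CPM in the fresh libraries and 233, 199 and 257 CPM in the transferred libraries (log2 fold change 3.09 ± 0.22 (SE), edgeR adjusted p = 1.2e-08). Ptgs2, the inducible cyclooxygenase, went from 7.43, 4.65 and 2.74 to 40.6, 72.7 and 93.8 CPM (log2 fold change 3.82 ± 0.34 (SE), edgeR adjusted p = 5.67e-07), with transferred replicate 1 the lowest of its group. All transferred libraries stood far above the fresh ones for these 3 genes. The interleukin-1 receptor Il1r1 rose from 73.9, 90.9 and 95.4 to 247, 253 and 234 CPM (log2 fold change 1.52 ± 0.13 (SE), edgeR adjusted p = 5.11e-10). Nfkbia, the inhibitor that NF-kB induces, was at 259, 246 and 231 CPM in fresh and 206, 222 and 252 CPM in transferred libraries and was not called (edgeR adjusted p = 0.596). Il1b had no count in any of the 6 libraries, and Tnf did not pass 0.793 CPM.

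Chemokines were split. Of 22 tested among 31 listed, 8 rose and 5 fell. Cxcl1, which attracts neutrophils, was at 19.8, 18.3 and 35.1 CPM in the fresh libraries and 329, 316 and 377 CPM in the transferred libraries (log2 fold change 3.83 ± 0.40 (SE), edgeR adjusted p = 3.37e-05). Cxcl5 had 2 counts over the fresh libraries and 18.9, 7.63 and 5.15 CPM in the transferred ones, a ratio of 187 (95% exact counting interval 50.6 to 1560). The ratio was 103 without transferred replicate 1, and both fresh counts were in replicate 1, without which the rise was at least 80.5-fold. Cxcl2 had no count in any fresh library and 1.26, 6.1 and 5.15 CPM in the transferred ones, at least 49.2-fold higher against the floor of 3 counts over the fresh group; without fresh replicate 1 the bound was 31.8-fold. Rarres2, which encodes chemerin, fell from 375, 441 and 346 to 162, 170.3 and 178 CPM (log2 fold change -1.16 ± 0.12 (SE), edgeR adjusted p = 2.12e-08). Cxcl14 fell from 66.5, 56.8 and 92.4 to 25, 21.4 and 19.8 CPM (log2 fold change -1.68 ± 0.18 (SE), edgeR adjusted p = 4.21e-08). The monocyte attractant Ccl2 (30.4, 69.1 and 84.2 CPM fresh, 96.6, 61.5 and 80.3 CPM transferred) and Cxcl16 (87.8, 107 and 117 CPM fresh, 101, 81.8 and 100.5 CPM transferred) overlapped between groups.

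Genes of the IL-6 family and the acute phase rose in 16 of 29 tested and fell in 6. Pim1, a kinase induced by STAT3, rose from 3.04, 4.38 and 7.7 to 30, 29.5 and 27.9 CPM (log2 fold change 2.55 ± 0.27 (SE), edgeR adjusted p = 4.16e-08). Serpina3g, one of a cluster of similar genes, rose from 4.71, 2.77 and 5.31 to 20.7, 26.4 and 24.6 CPM (log2 fold change 2.49 ± 0.28 (SE), edgeR adjusted p = 1.01e-07). Hp, haptoglobin, fell from 1313, 1477 and 986 to 492, 432 and 404 CPM (log2 fold change -1.48 ± 0.13 (SE), edgeR adjusted p = 2.23e-09). Lcn2, lipocalin 2, was at 49.7, 39.3 and 42.1 CPM in fresh and 37.6, 26.4 and 28.1 CPM in transferred libraries and was not called. In the complement list, 6 of 15 tested genes rose and 4 fell. C3, the central component, was among the most abundant transcripts, at 7799, 5474 and 6874 CPM in the fresh libraries and 15722, 14942 and 16304 CPM in the transferred libraries (log2 fold change 1.24 ± 0.14 (SE), edgeR adjusted p = 1.88e-07). The regulator Cd55 rose from 52.3, 53 and 44.5 to 152, 112 and 123 CPM (log2 fold change 1.40 ± 0.14 (SE), edgeR adjusted p = 1.33e-08). C2 fell from 161, 128 and 121 to 87, 92.5 and 87 CPM (log2 fold change -0.60 ± 0.12 (SE), edgeR adjusted p = 0.000324), and the inhibitor Serping1 (5550, 6378 and 6066 CPM fresh, 5814, 5131 and 5942 CPM transferred) was not called.

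Immediate early genes, which respond to cell stress and to tissue dissociation within minutes, rose in 16 of 29 tested and fell in 4 (median log2 fold change 0.94). Ier3 rose from 7.67, 13.6 and 17.9 to 61.3, 58 and 63.4 CPM (log2 fold change 2.25 ± 0.23 (SE), edgeR adjusted p = 5.28e-08). The stress gene Gadd45b rose from 18.2, 14.8 and 27.9 to 62.5, 63 and 76.9 CPM (log2 fold change 1.77 ± 0.20 (SE), edgeR adjusted p = 2.33e-07). The orphan receptor Nr4a3 rose from 8.87, 6.79 and 16.2 to 39.1, 36.6 and 46.2 CPM (log2 fold change 1.97 ± 0.25 (SE), edgeR adjusted p = 1.97e-06). The AP-1 factor Fosl2 rose from 39.9, 60.4 and 65.1 to 123, 122 and 97.7 CPM (log2 fold change 1.07 ± 0.15 (SE), edgeR adjusted p = 2.2e-06). The abundant Egr1 (384, 371 and 772 CPM fresh, 928, 931 and 1032 CPM transferred) and Junb (549, 392 and 780.4 CPM fresh, 829.8, 894 and 956 CPM transferred) lay higher in all transferred libraries but were not called (edgeR adjusted p = 0.0918 and 0.163). Egr1 passed in 3 of 12 alternatives and Junb in 1. Fresh replicate 3 was the highest fresh library for Ier3, Gadd45b, Nr4a3, Egr1 and Junb. The summed level of the list was 3741 to 6411 CPM in fresh and 7648 to 8336 CPM in transferred libraries, and the part of the isolation in the cytokine and NF-kB rises was not tested.

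More interferon-induced genes rose than fell. In the type I interferon list, 18 of 33 tested genes rose and 3 fell (median log2 fold change 0.48), and in the interferon-gamma and antigen presentation list 20 of 38 rose and 5 fell (median 0.48). Without transferred replicate 3 the rises of the second list numbered 13, and its falls numbered 3 without either of fresh replicates 1 and 2 or without transferred replicate 2. Trim30a was at 13.9, 18.6 and 16.7 CPM in the fresh libraries and 38.8, 34.1 and 40.8 CPM in the transferred libraries (log2 fold change 1.25 ± 0.18 (SE), edgeR adjusted p = 5.24e-06). The antiviral gene Oas1a, one of several close relatives, was at 1.12, 2.06 and 2.74 CPM in the fresh libraries and 9.08, 11.2 and 7.73 CPM in the transferred libraries (log2 fold change 2.23 ± 0.37 (SE), edgeR adjusted p = 2.44e-05). The RNA sensor Ifih1 was at 29.6, 20.6 and 25.3 CPM in the fresh libraries and 42.4, 47.3 and 44.6 CPM in the transferred libraries (log2 fold change 0.85 ± 0.18 (SE), edgeR adjusted p = 0.000366). Levels were low, and the groups were separated in each of these genes. Ifi27l2a, Rtp4 and Oasl2 rose as well, with log2 fold changes of 0.99, 1.30 and 1.13 (edgeR adjusted p = 4.98e-06, 1.18e-05 and 1.48e-05), whereas Bst2 (35.2, 44.2 and 31.7 CPM fresh, 44.6, 39.1 and 48.6 CPM transferred) and Xaf1 (29, 25.1 and 25.2 CPM fresh, 21.4, 14.2 and 27.8 CPM transferred) were not called.

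Interferon acts through a transcription factor complex that binds repeats of TTTC. Windows that hold TTTC followed, after any 2 bases, by another TTTC, on either strand and in capitals, are shown for the 2 genes with the smallest adjusted p among those that rose and hold it. Trim30a lies at chr7:104465144-104465443, minus strand, and Oas1a, where 2 matches overlap, at chr5:120907476-120907775, minus strand.
Trim30a: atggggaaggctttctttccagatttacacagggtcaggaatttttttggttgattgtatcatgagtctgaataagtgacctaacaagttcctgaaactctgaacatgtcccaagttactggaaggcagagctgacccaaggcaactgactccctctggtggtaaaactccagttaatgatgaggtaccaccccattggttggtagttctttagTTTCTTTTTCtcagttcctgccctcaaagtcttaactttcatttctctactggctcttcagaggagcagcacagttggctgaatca
Oas1a: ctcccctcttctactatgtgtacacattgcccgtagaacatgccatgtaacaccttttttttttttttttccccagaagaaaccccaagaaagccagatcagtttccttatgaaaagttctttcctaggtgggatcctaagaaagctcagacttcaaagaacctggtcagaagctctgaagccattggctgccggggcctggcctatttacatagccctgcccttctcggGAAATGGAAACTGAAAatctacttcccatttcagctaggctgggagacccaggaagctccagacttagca
Of the 22 tested list members that have a window, 13 held the motif (59.1%), against 3.49% of the windows of all genes. Bst2, which was not called, held it too.

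In antigen presentation, B2m, the light chain of MHC class I, rose from 408, 566 and 579 to 1048, 984 and 1117 CPM (log2 fold change 1.04 ± 0.13 (SE), edgeR adjusted p = 2.72e-07). The guanylate-binding proteins Gbp3 and Gbp4 rose from 21.6, 25.3 and 17.2 to 60, 54.4 and 63.2 CPM and from 0.24, 0.536 and 1.28 to 11.6, 7.12 and 17 CPM, with log2 fold changes of 1.51 and 4.17 (edgeR adjusted p = 1.96e-07 and 8.4e-07). H2-Ab1, an MHC class II chain, was low in both groups, at 0.639, 2.06 and 1.46 CPM in the fresh libraries and 6.05, 12.2 and 17.8 CPM in the transferred libraries (log2 fold change 3.15 ± 0.48 (SE), edgeR adjusted p = 9.13e-06). The transporter parts Tapbp (482, 380.4 and 428 CPM fresh, 478, 423 and 457 CPM transferred) and Tap2 (126, 89.2 and 109 CPM fresh, 122, 97.1 and 96.9 CPM transferred) were not called. Class II genes are also expressed by macrophages and other leukocytes. Among macrophage markers, Itgam and Cd163 had no count, Adgre1 had none in fresh and 0.252, 0.508 and 0.198 CPM in transferred libraries, and Csf1r was at 6.55, 7.24 and 1.8 CPM in fresh and 6.31, 6.1 and 5.95 CPM in transferred libraries. Lyz2 went the other way, from 16.5, 10.5 and 4.62 to 3.28, 0.508 and 1.19 CPM (edgeR adjusted p = 0.023). That call was kept in 7 of 12 alternatives. Cd68 was not called (1.2, 4.11 and 3.17 CPM fresh, 2.77, 3.56 and 1.78 CPM transferred). The leukocyte gene Ptprc had no count in fresh and 0.252, 1.53 and 0.396 CPM in transferred libraries. The part of such cells in the rise of H2-Ab1 was not tested.

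Proliferation genes showed no common direction. Of 29 tested, 23 were not called, 3 rose and 3 fell, with a median log2 fold change of 0.00. Rrm1, a ribonucleotide reductase subunit, rose from 45.5, 34 and 41.3 to 91.3, 70.2 and 89 CPM (log2 fold change 1.09 ± 0.15 (SE), edgeR adjusted p = 2.67e-06). The replication helicase genes Mcm6 (59.9, 51.2 and 46.3 CPM fresh, 46.2, 42.7 and 37.9 CPM transferred) and Mcm7 (30.7, 26.8 and 31.1 CPM fresh, 31.5, 32.5 and 27.2 CPM transferred) were not called. The calls for Cdk1 (edgeR adjusted p = 0.0182), E2f1 (0.0239) and Cdc20 (0.0222) were each lost in 3 or 4 of 12 alternatives, Cdk1 without fresh replicate 1, fresh replicate 2 or transferred replicate 1, E2f1 without fresh replicate 2 or transferred replicate 1, and Cdc20 without fresh replicate 3, transferred replicate 1 or transferred replicate 3. Rises and falls ranged from 1 to 5 and from 0 to 3 when single libraries were left out: without fresh replicate 2 or transferred replicate 1 there was 1 rise, without fresh replicate 3 there were 5 rises and no fall, and without transferred replicates 2 and 3 in turn there were 1 fall and none. In the list of cell cycle arrest and p53 genes, which also holds D-type cyclins, 12 of 24 rose and 7 fell. The cyclins Ccnd2 and Ccnd3, given below, are among those falls. Cdkn1b, which encodes the arrest protein p27, rose from 13.1, 14.6 and 14.4 to 47.7, 47.3 and 42.2 CPM (log2 fold change 1.73 ± 0.18 (SE), edgeR adjusted p = 2.74e-08). The p53 target Trp53inp1 rose from 5.19, 11 and 9.59 to 55.2, 64.1 and 61.2 CPM (log2 fold change 2.83 ± 0.25 (SE), edgeR adjusted p = 3.8e-09). The cyclins Ccnd2 and Ccnd3 fell from 229, 258 and 224 to 96.6, 92 and 104 CPM and from 294, 253 and 223 to 95.6, 104 and 91 CPM, with log2 fold changes of -1.25 and -1.39 (edgeR adjusted p = 8.59e-09 and 1.62e-09).

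Clock and glucocorticoid genes were shifted. Of 20 tested, 11 rose and 6 fell; the falls numbered 2 without fresh replicate 2 and 3 without transferred replicate 3. Nr1d2 and Nr1d1, the REV-ERB repressors of the clock, both rose. Nr1d2 went from 8.39, 6.17 and 9.59 to 82.7, 125 and 100.3 CPM and Nr1d1 from 33.2, 24.2 and 34.8 to 134, 139 and 134 CPM. The log2 fold changes were 3.67 ± 0.20 and 2.16 ± 0.15 (SE; edgeR adjusted p = 2.06e-13 and 1.77e-11). Arntl, the activator that REV-ERB represses, was at 74.6, 68.5 and 79.4 CPM in the fresh libraries and 39.1, 38.6 and 34.9 CPM in the transferred libraries (log2 fold change -0.96 ± 0.16 (SE), edgeR adjusted p = 1.85e-05). Bhlhe41, another clock repressor, rose from 20.4, 15.7 and 16.3 to 76.9, 64.6 and 55.1 CPM (log2 fold change 1.93 ± 0.17 (SE), edgeR adjusted p = 2.63e-09), whereas Per1 (84.2, 66 and 84.9 CPM fresh, 89, 98.6 and 94.2 CPM transferred) and Tef (59.9, 69.5 and 54.4 CPM fresh, 65.3, 86.9 and 74.5 CPM transferred) were not called. Per1 lay higher in all transferred libraries. It stayed uncalled in 9 of 12 alternatives and Tef in 7 of 12. In the other alternatives they were called higher, at edgeR adjusted p down to 0.0328 for Per1 and 0.0211 for Tef. The hour of collection is not given in the sources used here, so a difference in hour and transfer cannot be told apart. Hsd11b1, which makes active glucocorticoid inside cells, fell from 689.7, 1238 and 1173 to 101, 104 and 93.4 CPM (log2 fold change -3.36 ± 0.18 (SE), edgeR adjusted p = 7.05e-12).

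Growth factor genes went both ways, with 11 of 30 higher and 7 lower. Fgf10, a growth factor for preadipocytes, fell from 72.7, 59.6 and 61 to 11.3, 4.07 and 13.1 CPM (log2 fold change -2.60 ± 0.32 (SE), edgeR adjusted p = 4.68e-06). Vegfd, a lymphatic growth factor, fell from 182, 226 and 194 to 101, 87.9 and 110.0 CPM (log2 fold change -0.97 ± 0.13 (SE), edgeR adjusted p = 1.33e-06). Igf1 (1614, 1351 and 1202 CPM fresh, 1521, 1318 and 1522 CPM transferred) and the receptor Axl (899.8, 745 and 885 CPM fresh, 901, 952 and 932 CPM transferred) were not called. In the list of WNT, BMP and Notch genes 10 of 32 rose and 11 fell. The WNT amplifiers Rspo3 and Rspo1 fell, Rspo3 from 42.5, 56.7 and 35 to 7.31, 4.07 and 4.96 CPM (log2 fold change -2.96 ± 0.26 (SE), edgeR adjusted p = 2e-09) and Rspo1 from 62.3, 60.3 and 50.4 to 21.9, 25.9 and 24.4 CPM (log2 fold change -1.24 ± 0.17 (SE), edgeR adjusted p = 2.18e-06). The ligand Wnt2 rose from 0.719, 0.894 and 0.342 to 7.31, 10.7 and 10.5 CPM (log2 fold change 3.85 ± 0.38 (SE), edgeR adjusted p = 1.26e-08). The Notch ligand Jag1 rose from 11.9, 18.6 and 16.4 to 62, 48.3 and 62.4 CPM (log2 fold change 1.92 ± 0.17 (SE), edgeR adjusted p = 2.5e-09). Id3, a BMP target (579, 496 and 554 CPM fresh, 554, 621 and 660.5 CPM transferred), overlapped between groups.

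Among positional genes 9 of 25 fell and 4 rose, but 5 fell and 5 rose after thinning all libraries to the smallest total. Hoxc9 fell from 19.6, 19.6 and 21.1 to 5.8, 4.58 and 7.73 CPM (log2 fold change -1.64 ± 0.27 (SE), edgeR adjusted p = 1.98e-05). Hoxa7 fell from 36.3, 37.8 and 33 to 18.2, 21.9 and 22.6 CPM (log2 fold change -0.75 ± 0.17 (SE), edgeR adjusted p = 0.000797). Twist2 fell from 12.5, 13.6 and 15.1 to 5.8, 3.56 and 2.38 CPM (log2 fold change -1.79 ± 0.30 (SE), edgeR adjusted p = 2.71e-05). The mesenchymal homeobox gene Prrx1 rose from 50.1, 60.5 and 72.4 to 187, 192 and 173 CPM (log2 fold change 1.61 ± 0.14 (SE), edgeR adjusted p = 7.45e-10). Wt1, which marks visceral fat stroma, was at 119.7, 89.1 and 91.6 in fresh and 100.4, 119.97 and 111 CPM in transferred libraries and was not called. Among adhesion genes, 13 of 27 rose and 3 fell. The fibroblast cadherin Cdh11 rose from 16.4, 17.1 and 30.3 to 189, 180.0 and 171 CPM (log2 fold change 3.10 ± 0.25 (SE), edgeR adjusted p = 6.71e-08). Another cadherin, Cdh13, fell from 73.8, 58.4 and 50.9 to 10.6, 13.2 and 10.5 CPM (log2 fold change -2.42 ± 0.20 (SE), edgeR adjusted p = 7.64e-10). The integrin Itgav rose from 19.3, 15.6 and 28.2 to 65.6, 63 and 62.8 CPM (log2 fold change 1.62 ± 0.19 (SE), edgeR adjusted p = 1.2e-07). Nkain4, listed as a mesothelial marker, fell from 77.5, 98.6 and 62.2 to 9.58, 5.59 and 7.53 CPM (log2 fold change -3.31 ± 0.30 (SE), edgeR adjusted p = 1.26e-08). The defining mesothelial genes Msln and Upk3b did not pass 0.504 CPM in any of the 6 libraries. Des, desmin, and Myh11, smooth muscle myosin, from the pericyte and smooth muscle list fell from 288, 216 and 238 to 123, 122 and 136 CPM and from 99.4, 52.4 and 40.8 to 17.9, 14.2 and 16.6 CPM, with log2 fold changes of -0.93 and -1.93 (edgeR adjusted p = 2.94e-06 and 5.12e-05). Des and Myh11 made up most of the summed level of that list, so its lower level in transferred libraries is not a separate observation. Of 7 genes of the list tested, 3 fell, Mcam among them (5.67, 4.47 and 5.39 CPM fresh, 0.504, 1.02 and 0.396 CPM transferred). Notch3 and Cspg4 were not called, with means of 15.3 and 3.52 CPM in fresh and 26 and 4.72 CPM in transferred libraries. The part of such cells in the falls of Des and Myh11 was not tested. Of the other marker lists, 8 of 12 stromal genes rose and 2 fell, 1 of 7 endothelial genes rose, and 1 of 3 macrophage genes fell, a fall that was lost without fresh replicate 1, fresh replicate 2, transferred replicate 2 or transferred replicate 3. A second endothelial gene rose without fresh replicate 3 or without transferred replicate 3. Few genes of the remaining lists were abundant enough to test, 2 for lymphocytes, 1 each for neutrophils and mast cells and for erythrocytes, and none for epithelium, and among them only Ighm was called.

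**Figure D4:**
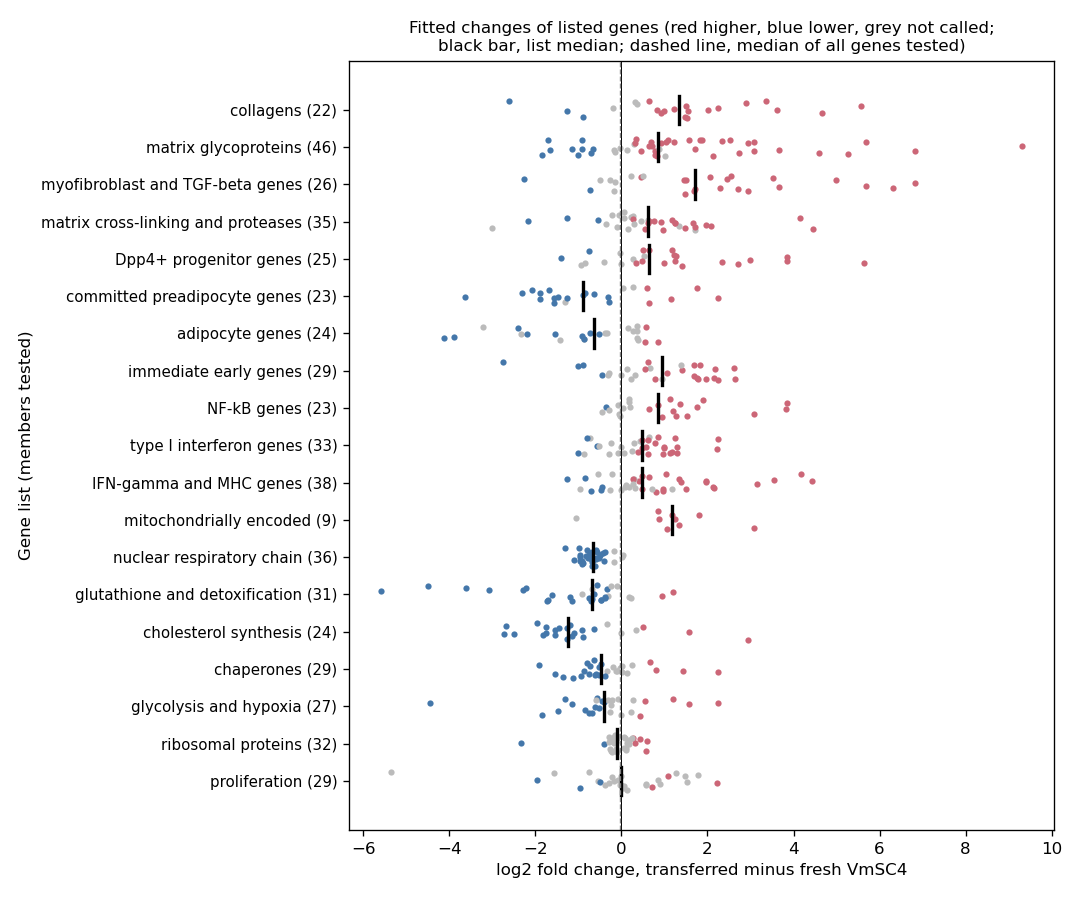
Fitted log2 fold change of each tested member of 19 gene lists, transferred minus fresh VmSC4; points are genes (red called higher, blue called lower, grey not called), black bars are list medians and the dashed line is the median of all genes tested, -0.02. List medians run from 1.70 for myofibroblast and TGF-beta genes to -1.23 for cholesterol synthesis.

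To see which of these differences were larger in VmSC4 than in VmSC5, the change of VmSC4 on transfer was set against that of VmSC5 cells recovered as VmSC5 (3 fresh and 2 transferred libraries). VmSC5 libraries carry the same genotype and treatment labels, and the comparisons share no library. The difference between the responses passed edgeR's test for 448 genes on the higher side for VmSC4 (3.21% of genes tested) and for 749 on the lower side (5.37%). These counts lean on single libraries: without VmSC5 transferred replicate 1 they were 120 and 242, and without VmSC4 transferred replicate 2 they were 279 and 428. The count on the lower side was 495 without fresh VmSC5 replicate 2, 493 without fresh VmSC5 replicate 3 and 468 without VmSC5 transferred replicate 2. Where 1 transferred VmSC5 library was left, it was assumed to vary like the other groups.

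For collagen genes the difference was more often called higher than lower for VmSC4. Of 22 collagen genes the difference was called higher for 10 and lower for 1, and of 46 matrix glycoproteins for 15 and 3. Col12a1 went from 2.24, 4.02 and 3.6 to 83.5, 85.4 and 76.7 CPM in VmSC4 and from 3.81, 7.34 and 7.04 to 25.3 and 19.8 CPM in VmSC5, a difference of log2 responses of 2.81 ± 0.37 (SE), edgeR adjusted p = 5.05e-05. Col1a1 in VmSC5 went from 3307, 3710 and 3956 to 15278 and 15998 CPM, above all fresh libraries there too, and the VmSC4 change was larger (difference 1.58 ± 0.38 (SE), edgeR adjusted p = 0.0235). Sfrp2 started lower in VmSC4 than in VmSC5, whose levels were 55.1, 26.3 and 118 CPM in fresh VmSC5 and 103 and 248 CPM in transferred VmSC5 (difference 4.84 ± 0.98 (SE), edgeR adjusted p = 0.0174). That call was lost without VmSC5 transferred replicate 1 (adjusted p = 0.1) and, at 0.0504, with the replicate number as a block. Mical2, a regulator of actin, went from 4.87, 8.76 and 10.4 to 90, 109 and 86.6 CPM in VmSC4 and from 5.77, 9.57 and 16.9 to 14.9 and 19.4 CPM in VmSC5 (difference 2.97 ± 0.48 (SE), edgeR adjusted p = 0.00135). Hmcn2, a hemicentin, went in VmSC4 from 155, 123 and 285 to 319.6, 491 and 365 CPM (log2 fold change 1.07 ± 0.29 (SE), edgeR adjusted p = 0.0106; 0.0519 without a filter on low counts) and stood at 792, 947 and 1138 CPM in fresh VmSC5 and 277 and 289 CPM in transferred VmSC5 (difference 2.89 ± 0.44 (SE), edgeR adjusted p = 0.0034). Col8a1 (difference 3.74 ± 0.65 (SE), edgeR adjusted p = 0.00831) lost its call without VmSC5 transferred replicate 1, at an adjusted p of 0.056. Piezo2 (difference 3.63 ± 0.99 (SE), edgeR adjusted p = 0.0363) lost its call in 9 of 17 alternatives, with the largest adjusted p, 0.18, without fresh VmSC5 replicate 3.

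For immediate early genes and mitochondrial transcripts the calls were on the lower side. In the immediate early list the difference was called lower for 8 of 29 genes and higher for none, and in the mitochondrially encoded list lower for 6 of 9 and higher for none. Fresh VmSC5 started from fewer mitochondrial transcripts: mt-Cytb was at 356, 240.2 and 189 CPM in fresh VmSC5 and 1917 and 1402 CPM in transferred VmSC5 (difference -1.55 ± 0.27 (SE), edgeR adjusted p = 0.00156). Mitochondrial transcripts took 0.0722% to 0.167% of counts in fresh and 0.831% to 1.045% in transferred VmSC5, and the part of this starting level in the difference was not tested. Il6 rose in VmSC4 but stood at 0.103, 0.744 and 0.352 CPM in fresh VmSC5 and 58.5 and 47.6 CPM in transferred VmSC5, and the difference of -3.09 ± 0.52 (SE), edgeR adjusted p = 0.000579 was lost after thinning all libraries to the smallest total (adjusted p = 0.0912). Cyp2f2 fell in VmSC4 and stood at 3.09, 0.957 and 4.1 CPM in fresh VmSC5 and 3.42 and 8.01 CPM in transferred VmSC5 (difference -6.59 ± 0.77 (SE), edgeR adjusted p = 3.75e-05). Aldh1a7, a detoxifying dehydrogenase, fell in VmSC4 from 58, 36.6 and 30.3 to 2.77, 0.508 and 1.59 CPM (log2 fold change -4.49 ± 0.49 (SE), edgeR adjusted p = 4.64e-07) and was at 0.515, 1.06 and 0.352 CPM in fresh VmSC5 and 1.61 and 0.445 CPM in transferred VmSC5 (difference -5.11 ± 1.13 (SE), edgeR adjusted p = 0.00857); without VmSC5 transferred replicate 1 its adjusted p was 0.369. Igfbp5, an IGF-binding protein, fell in VmSC4 from 12.1, 6.7 and 6.85 to 3.03, 2.03 and 3.77 CPM (log2 fold change -1.41 ± 0.39 (SE), edgeR adjusted p = 0.00586) and was at 12.3, 12.9 and 13.4 CPM in fresh VmSC5 and 67.4 and 75.7 CPM in transferred VmSC5 (difference -3.83 ± 0.49 (SE), edgeR adjusted p = 7.38e-05). Crocc2 and the noradrenaline transporter gene Slc6a2 overlapped between the VmSC4 groups, at 14.5, 5.9 and 11.7 CPM in fresh and 15.1, 22.9 and 11.9 CPM in transferred libraries and at 21.2, 6.35 and 6.51 CPM in fresh and 14.6, 13.7 and 18.4 CPM in transferred libraries. In VmSC5 they went from 0.309, 0.85 and 0.821 to 23.3 and 20 CPM and from 1.24, 0.957 and 2.11 to 18.9 and 26.9 CPM, with differences of -4.36 and -3.44 (edgeR adjusted p = 1.63e-05 and 0.0015). Of 25 Dpp4+ progenitor genes the difference was called higher for 6 and lower for 9. Among those called lower were Ly6c1 (difference -0.66 ± 0.17 (SE), edgeR adjusted p = 0.0187) and Sema3c (difference -2.20 ± 0.24 (SE), edgeR adjusted p = 5.19e-06). The progenitor genes Dpp4 (difference 1.14 ± 0.29 (SE), edgeR adjusted p = 0.0159) and Pi16 (difference 1.46 ± 0.32 (SE), edgeR adjusted p = 0.0135) went the other way, from lower fresh levels in VmSC4, while for Cd34 the difference was -0.77 ± 0.18 (SE), edgeR adjusted p = 0.00975, with levels of 1280, 1190 and 888 CPM in fresh VmSC5 and 1761 and 1533 CPM in transferred VmSC5. In the cholesterol list the difference was called higher for 2 of 24 genes and lower for 1.

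**Figure D5:**
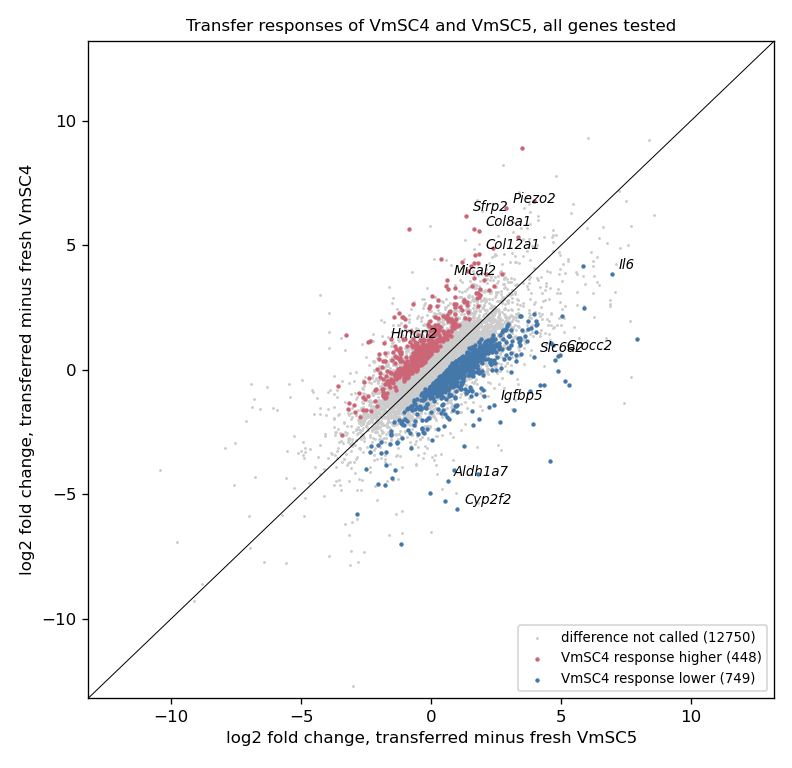
Fitted log2 fold change on transfer in VmSC4 (vertical axis) against that in VmSC5 (horizontal axis) for all 13947 genes tested; red points are the 448 genes whose VmSC4 response was higher and blue points the 749 whose response was lower by edgeR, and the line marks equal responses. Sfrp2, Col8a1, Piezo2, Col12a1, Mical2 and Hmcn2 lie above the line and Il6, Slc6a2, Crocc2, Igfbp5, Aldh1a7 and Cyp2f2 below it.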

How the data were processed

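Gene counts were used as deposited by the authors, in 1 table of 55011 genes and 42 libraries with no unmapped column. Per the submitters' processing notes, reads were aligned to mm10 with STAR 2.7.3a and counted with featureCounts. The annotation release and strand setting are not given in the sources used here. Libraries were made from polyA RNA by the ImmGen ultra-low-input procedure, per the labels' protocols.

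The counts of 14 libraries in 5 fresh and transferred VmSC4 and VmSC5 groups were fitted together with edgeR 4.0.16 (R 4.3.3): filterByExpr at a minimum count of 10, TMM scaling, robust quasi-likelihood F tests, two-sided, Benjamini-Hochberg over all genes tested, called under 0.05. SE is the size of the log2 fold change divided by the square root of F. CPM was computed from unscaled library totals. The steps were checked on simulated counts in which few genes were changed, equally in both directions. That check does not cover a change as broad as the one found here. No replicate pair agreed within sampling noise.

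The libraries and the 38 gene lists were chosen with earlier results of these data known, and list counts are descriptions. Some genes are shared between lists, among them Fn1, Icam1 and Il6, so list counts are not separate observations. Named genes are 10 fixed genes, up to 4 called members of each list by adjusted p and up to 2 uncalled members by level, the 12 largest rises and falls, and the 6 largest differences each way; genes outside this are stated. Not every gene the rule selects is printed, and some are not reported here. A group with no count was given a floor of 3 counts over the group, and such bounds and intervals cover counting error only. Positions are from GENCODE M21 (GRCm38), matched for all named genes but Aldoa. The results were recomputed with DESeq2 1.42.0, with RLE in place of TMM scaling, without the count filter, from the compared groups alone, with a replicate block, on counts thinned to the smallest library, and with each library left out.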

Additional observations from a re-analysis of the deposited data

Results flagged for a closer look

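For 12 genes the change on transfer differed between VmSC4 and VmSC5 by edgeR's test of the difference itself, fitted over all 13947 genes. They are the 6 largest differences in each direction among called genes that reached a mean of 20 CPM in a group. The difference is the log2 fold change in VmSC4 minus that in VmSC5. It was 4.84 for Sfrp2, 3.74 for Col8a1, 3.63 for Piezo2, 2.97 for Mical2, 2.89 for Hmcn2 and 2.81 for Col12a1. It was -6.59 for Cyp2f2, -5.11 for Aldh1a7, -4.36 for Crocc2, -3.83 for Igfbp5, -3.44 for Slc6a2 and -3.09 for Il6. For Hmcn2 the levels moved in opposite directions, with means of 187 ± 85.8 (SD) and 392 ± 88.5 CPM (SD, n = 3 each) in fresh and transferred VmSC4, against 792, 947 and 1138 CPM in fresh VmSC5 and 277 and 289 CPM in transferred VmSC5. Igfbp5 likewise fell in VmSC4 and stood at 12.3, 12.9 and 13.4 CPM in fresh VmSC5 and 67.4 and 75.7 CPM in transferred VmSC5. Crocc2 and Slc6a2 were called in the difference although neither was called in VmSC4. The transferred VmSC5 group has 2 libraries. Without its replicate 1 the call was lost for Sfrp2 (adjusted p = 0.1), Col8a1 (0.056), Piezo2 (0.101) and Aldh1a7 (0.369). Piezo2 lost its call in 9 of 17 alternatives, Sfrp2 also with the replicate block (0.0504), and Il6 after thinning to the smallest library (0.0912).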

How the results depend on the processing

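The counts of 2990 rises and 3442 falls in VmSC4 stayed within 1.5 times under every alternative, at 2612 to 3296 and 2557 to 3497, and at 2509 to 2896 and 2934 to 3207 with single libraries left out. Scaling by RLE moved them to 3254 and 3168. The counts for the difference from VmSC5, 448 and 749, moved more. From the compared groups alone they were 356 and 499. With single libraries left out they ran from 120 to 519 and from 242 to 930, both lowest without VmSC5 transferred replicate 1 and highest without fresh VmSC5 replicate 1. With the replicate number as a block, the counts were 2921 and 3392 in VmSC4 and 390 and 668 for the difference; same-numbered libraries did not deviate together (correlations -0.018, -0.012 and -0.008) and share only a number. Over the named genes and alternatives, 2688 of 2772 transfer values kept their direction and side of the threshold, 33 lost the call, 51 gained one and none reversed. For the difference 190 of 204 did and 14 lost the call. Of 912 list counts, 861 stayed within 1.5 times and 51 moved. After thinning, falls numbered 5 in the positional list, 3 among chemokines and clock genes, 2 in the interferon-gamma list and 1 among myofibroblast genes, and without the filter 5 each for matrix enzymes and adhesion. The cause was not tested. Thinned to the smallest library, 2669 rose and 2557 fell; fewer genes were called at that depth.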
